A study of Homo sapiens with 24 samples.

Results

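Intermediate filaments are cytoplasmic cables built from proteins that share a central α-helical rod, and the set of genes a cell uses is a classical mark of its lineage. This account covers 10 of them in human HEK293-derived cells, chosen by name from the 58138 gene names of the count tables: VIM, NES, NEFL, NEFM, NEFH, INA, PRPH, KRT8, KRT18 and KRT19. All 10 names were present in all 24 libraries. The 10 genes, and the marker lists used below, were chosen with earlier results of these data known. Their p-values are therefore not those of genes fixed before the data were seen. The values are raw counts scaled to each library's total, given as CPM, the counts of a gene when all counts in genes of the library are set to 1000000.

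The series was made to ask how the RPRD proteins, which bind the tail of RNA polymerase II, shape the amount of RNA at steady state. RNA was read from the 3′ ends of polyadenylated transcripts (QuantSeq REV), so each transcript molecule gives about one read whatever its length, and counts of different genes were compared without division by length. The 24 libraries form 12 groups of 2.

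HEK293T, a human embryonic kidney line that carries the SV40 large T antigen, gave 16 libraries in 8 groups, all transfected with siRNA for 48 h. They are the control siRNA (CTRL), single silencing of RPRD1A, RPRD1B or RPRD2 (RPRD1A_KD, RPRD1B_KD, RPRD2_KD), and the combined groups RPRD1A_RPRD1A_KD, RPRD1A_RPRD2_KD, RPRD1B_RPRD2_KD and RPRD1A_RPRD1B_RPRD2_KD. The name RPRD1A_RPRD1A_KD repeats RPRD1A and was kept as labelled. Flp-In T-REx 293, a HEK293 derivative built for tetracycline-driven expression of an inserted gene, gave 8 libraries in 4 groups. FLP is the parent line and FLP_TET the same line after 48 h of tetracycline, and RPRD1B_FL was likewise kept without tetracycline or given it for 48 h (RPRD1B_FL_TET). The labels do not say what FL stands for, nor whether the RPRD1B_FL cells are 1 clone or a pool. All Flp-In groups lack siRNA transfection and all HEK293T groups have it, so the cell line cannot be told apart from the transfection and the handling of each set. Nothing in the labels says that the 2 libraries of a group came from separate cultures, so p-values measure the spread between these libraries.

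Cells build intermediate filaments in lineage-specific sets. Vimentin (VIM) is the filament protein of mesenchymal cells and of most cultured lines, and nestin (NES) is typical of neural progenitors. The neurofilament subunits NEFL, NEFM and NEFH, α-internexin (INA) and peripherin (PRPH) belong to neurons: NEFL is the core with which NEFM and NEFH assemble. Simple epithelia use keratins, which form obligate pairs of a type II chain (KRT8) with a type I chain (KRT18 or KRT19).

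In GENCODE 29 (GRCh38), NEFL (chr8:24950955-24957110, minus strand) and NEFM (chr8:24913012-24919098, plus strand) are neighbours 31856 bases apart. KRT8 (chr12:52897187-52949954, minus strand) and KRT18 (chr12:52948871-52952901, plus strand) overlap by 1084 bases at their 5′ sides, away from the 3′ ends that the reads come from. VIM lies at chr10:17228259-17237593, INA at chr10:103277163-103290351, NES at chr1:156668763-156677397, NEFH at chr22:29480230-29491390, PRPH at chr12:49293252-49298686 and KRT19 at chr17:41523617-41528308. KRT18 is the member whose counts are least certain: of the 251 50-base words in the last 300 bases of its transcript, 97 also occur in one of 11 KRT18 pseudogenes. For KRT19 that number was 6, for KRT8 3 and for the other 7 genes 0. The 67 names of the form KRT18P plus a number held 75 counts in all, against 3708 for KRT18. The strand setting of the counting is not given in the sources used here, and antisense genes overlap VIM, NEFL, NEFM, NEFH and PRPH. Their summed counts over the 24 libraries were 83 for VIM-AS1, 160 for the gene antisense to NEFL, 22 for the one at NEFM and 51 for the one at PRPH.

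Total counts in genes were 1817246 to 3135625 in the HEK293T libraries and 2342969 to 3531106 in the Flp-In libraries. A count of 3, used as the floor of detection, was worth 0.850 to 1.65 CPM. Intervals given below are exact 95% intervals and, like the floor, cover counting error only. Reads that the counting assigned to no gene feature made up 27.4 to 36.7% in HEK293T (34.3 to 36.7% in replicate 1 and 27.4 to 29.8% in replicate 2) and 15.3 to 19.5% in Flp-In. This share moves with the line, and its part in the line differences was not tested. The second RPRD1A_RPRD2_KD library stood apart from the other 15 HEK293T libraries: on the first principal component, which held 30.1% of the variance, it lay at -52.9 and the others between -4.93 and 11.2. Its gene deviations also followed transcript GC content (Spearman's rho 0.42 across genes). Among the Flp-In libraries this rho ran from -0.50 to 0.55. The targeted genes were lower in the groups named for them: RPRD1A was at 149 and 165 CPM in CTRL and at 14.6 to 27.9 CPM in the 4 groups whose names hold it. In the other 3 silenced groups it was at 69.7 to 103 CPM, which edgeR did not call (adjusted p 0.629 to 1.00). RPRD1B was at 27.3 and 28.1 CPM in CTRL and at 3.99 to 14.7 CPM in its 3 groups, and RPRD2 at 94.3 and 101 CPM in CTRL and at 31.9 to 69.7 CPM in its 4 groups. By the same test RPRD1A was called in its 4 groups, RPRD2 only in RPRD2_KD and RPRD1B_RPRD2_KD, and RPRD1B in none of its groups. In RPRD1A_RPRD1A_KD, RPRD1B was also below CTRL, at 14.4 and 8.06 CPM. RPRD1B was at 79.1 and 64.4 CPM in RPRD1B_FL_TET, and at 29.2 and 28.3 CPM in FLP_TET.

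The 10 genes together came to 144 to 234 CPM in the 16 HEK293T libraries (median 197) and to 954 to 1329 CPM in the 8 Flp-In libraries (median 1104). In HEK293T most of this was vimentin: VIM made up 49.9 to 74.4% of the counts of the 10 genes there (median 69.7%), and 65.4% or more once the second RPRD1A_RPRD2_KD library is left out. In Flp-In cells the 3 keratins held 47.5 to 65.4% of these counts, against 9.91 to 29.7% in HEK293T (at most 19.9% without that library), and VIM held 27.3 to 35.3%. The 5 neuronal genes NEFL, NEFM, NEFH, INA and PRPH held 9.03 to 17.6% in HEK293T and 7.12 to 18.2% in Flp-In. These shares overlapped, but their main genes differed. In Flp-In NEFL held most of the neuronal counts (2641 over the 8 libraries, with INA at 418). In HEK293T NEFM (446 over the 16 libraries) and INA (386) held most of them, and NEFL had 119.

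**Figure D1:**
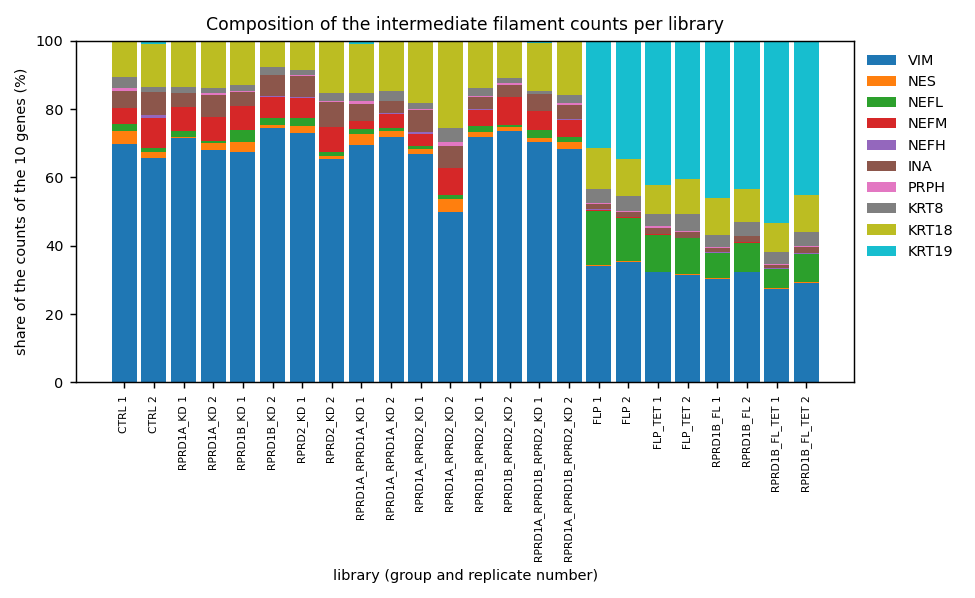
Share of each of the 10 genes in their summed counts (vertical axis, %), one bar per library (horizontal axis). VIM (blue, at the bottom) takes most of each HEK293T bar, and KRT19 (cyan, at the top) appears as a broad band only in the 8 Flp-In bars, where it takes 31.4 to 53.2%.

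The comparison of lines was fitted over all 24 libraries with edgeR (quasi-likelihood test, Benjamini-Hochberg adjustment over all 12803 genes tested, called at an adjusted p under 0.05). In FLP against CTRL, untreated Flp-In cells against HEK293T cells with the control siRNA, 33.4% of all genes tested were called. Of the 10 genes, 9 passed the filter on low counts, 5 were called higher (VIM, NEFL, KRT8, KRT18, KRT19) and 1 lower (NEFM). NEFH did not pass. In the mean of the 4 Flp-In groups against the mean of the 8 HEK293T groups 68.8% of all genes were called, with 7 of the 9 higher (the same 5 with INA and PRPH) and 2 lower (NEFM and NES). Within one line alone, KRT19 and PRPH passed that filter only in Flp-In, and NES and NEFM only in HEK293T: these 4 entered the comparison through the line in which they are high, so the counts of calls are a description. The median log2 fold change of the 9 was 1.55 in FLP against CTRL and 1.77 over all groups, beside -0.02 and -0.03 for all genes tested. Both medians are the value of PRPH, which is among these 4, so they too are a description only.

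VIM, the mesenchymal filament gene, was the most abundant of the 10 in every HEK293T library. It was at 125 and 153 CPM (229 and 339 counts) in CTRL and at 71.8 to 157 CPM over the 16 HEK293T libraries, with a median of 136 CPM. In Flp-In it was at 325 and 386 CPM in FLP, 391 and 382 in FLP_TET, 339 and 323 in RPRD1B_FL, and 363 and 312 in RPRD1B_FL_TET. The lines did not overlap, and the lowest Flp-In library lay well above the highest of HEK293T. Summed over libraries, VIM was 2.56-fold higher in FLP than in CTRL (counting interval 2.33 to 2.81), with a log2 fold change of 1.38 ± 0.18 (SE, edgeR, adjusted p = 1.25e-06). In the order of group means the 4 Flp-In groups came first and each overlapped its neighbour. From RPRD2_KD (150 CPM) down to RPRD1A_KD (134 CPM) 7 HEK293T groups overlapped in the same way, and RPRD1A_RPRD2_KD (88.7 CPM) stood below them.

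NES, the progenitor gene, was low throughout. It had 12 and 9 counts in CTRL (6.54 and 4.07 CPM) and ran from 0.475 to 6.54 CPM in HEK293T, with a median of 3.69 CPM. Flp-In libraries ranged from 0.695 to 2.37 CPM, with 2 to 7 counts each, so single libraries were near the floor and the lines overlapped. In FLP against CTRL its log2 fold change was -1.28 ± 0.67 (SE, edgeR), which did not pass the test (adjusted p = 0.15). Over all groups NES was lower in Flp-In, by a log2 fold change of -1.14 ± 0.34 (SE, edgeR, adjusted p = 0.00436). Without the second RPRD1A_KD library this became -0.85 and the call was lost. That fit leaves RPRD1A_KD with 1 library, which has 1 NES count. The call was kept in the other 30 of 31 alternatives.

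The neurofilament genes changed places between the lines. NEFL, the light subunit, had 7 and 6 counts in CTRL (3.82 and 2.72 CPM) and 1.05 to 6.70 CPM over the HEK293T libraries. In Flp-In it was at 152 and 138 CPM in FLP (406 and 486 counts), 132 and 128 in FLP_TET, 81.6 and 83.1 in RPRD1B_FL, and 75.4 and 87.5 in RPRD1B_FL_TET. Every Flp-In library was above every HEK293T library by more than 10 times. NEFL was 44.7-fold higher in FLP than in CTRL (counting interval 26.0 to 84.2), with a log2 fold change of 5.49 ± 0.31 (SE, edgeR, adjusted p = 7.27e-13).

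NEFM, the medium subunit encoded next to NEFL, went the other way. It was at 8.18 and 20.8 CPM in CTRL (15 and 46 counts), and HEK293T libraries ran from 4.81 to 20.8 CPM with a median of 11.8. Flp-In libraries held 2 to 10 counts each, between 0.676 and 3.73 CPM, and did not overlap with HEK293T. NEFM was 5.21-fold lower in FLP than in CTRL (counting interval 3.04 to 9.36). The log2 fold change was -2.29 ± 0.47 (SE, edgeR, adjusted p = 0.000464). The second CTRL library was the highest of all 24: without it the change was -1.45 with an adjusted p of 0.0749, while over all groups it was -2.65 ± 0.25 (SE) and ran from -2.81 to -2.33 over the alternatives. The ratio of NEFL to NEFM counts was 0.0732 to 0.556 in HEK293T libraries and 36.5 to 111.5 in Flp-In libraries.

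NEFH, the heavy subunit, was near the floor in both lines. It had 0 and 4 counts in CTRL and no count in 9 of the 16 HEK293T libraries, and it summed to 11 counts there. The 8 Flp-In libraries had 1 to 10 counts each, 44 in all, between 0.292 and 3.38 CPM. Its ratio of FLP over CTRL was 1.63 (counting interval 0.470 to 7.11), which reached 1, and over all libraries NEFH was 6.37-fold higher in Flp-In (3.24 to 13.7). As NEFH did not pass the filter, these ratios have no test across libraries in the main fit.

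INA, which joins NEFL and NEFM in young neurons, was the neuronal member whose levels were closest between the lines. It was at 9.27 and 15.8 CPM in CTRL, and HEK293T libraries spanned 6.83 to 16.2 CPM with a median of 9.35. In Flp-In it was at 15.7 and 15.9 CPM in FLP, 23.04 and 20.6 in FLP_TET, 15.3 and 17.1 in RPRD1B_FL, and 13.2 and 19.6 in RPRD1B_FL_TET, so the lines overlapped. In FLP against CTRL the log2 fold change of 0.33 ± 0.29 (SE, edgeR) did not pass the test (adjusted p = 0.41). Over all groups INA was higher in Flp-In by 0.89 ± 0.13 on the log2 scale (SE, edgeR, adjusted p = 5.96e-07).

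PRPH, a filament gene of peripheral neurons, stayed close to the floor. CTRL had 3 and 0 counts, HEK293T libraries reached 1.64 CPM at most, and the Flp-In libraries ran from 0.759 to 5.54 CPM. The highest 2 were those of FLP_TET, at 5.54 and 3.999 CPM (19 and 13 counts). Over all groups the log2 fold change was 1.77 ± 0.40 (SE, edgeR, adjusted p = 0.000404), and in FLP against CTRL it was 1.55 ± 1.0 with an adjusted p of 0.249.

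**Figure D2:**
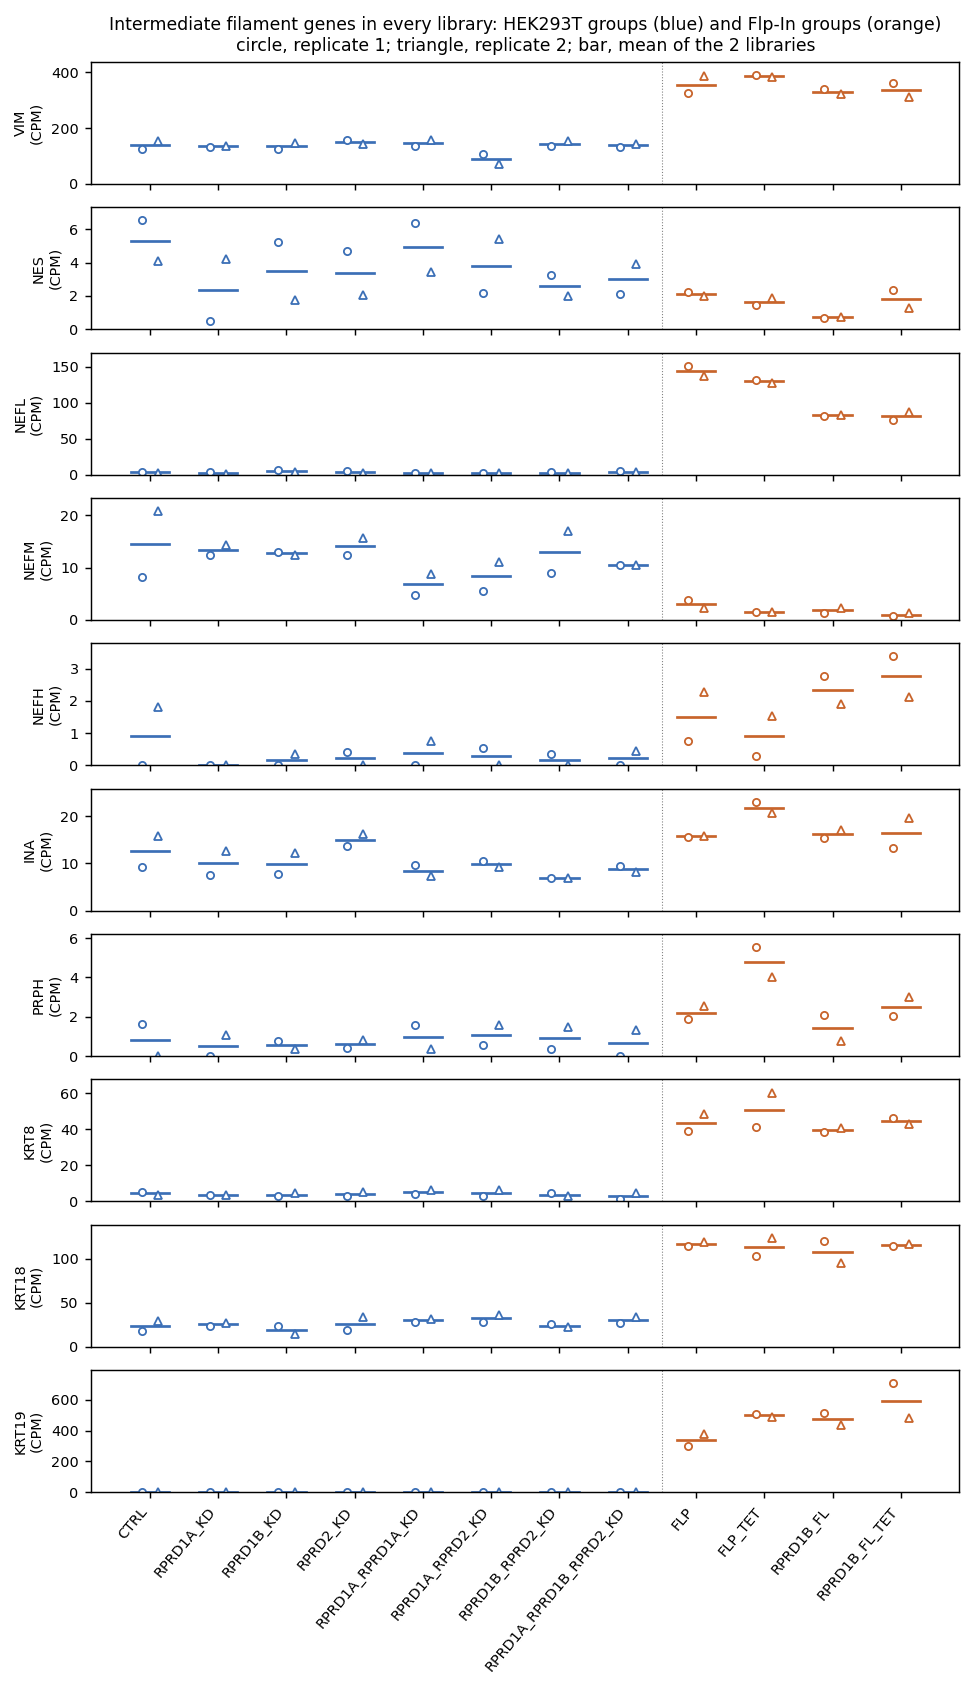
Level of each of the 10 genes (vertical axes, CPM, linear and starting at 0) in every library, by group (horizontal axis); circles are replicate 1, triangles replicate 2 and bars the mean of the 2. To the right of the dotted line, VIM, NEFL, KRT8, KRT18 and KRT19 of Flp-In sit above every HEK293T library, NEFM sits below, and NEFL is lower in both RPRD1B_FL groups than in FLP and FLP_TET.

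All 3 keratins were higher in Flp-In. KRT8, the type II chain of simple epithelia, was at 5.45 and 3.62 CPM in CTRL (10 and 8 counts) and at 1.57 to 6.14 CPM in HEK293T. In Flp-In it was at 39.2 and 48.1 CPM in FLP, 41.4 and 60.3 in FLP_TET, 38.6 and 40.6 in RPRD1B_FL, and 46.3 and 43.1 in RPRD1B_FL_TET. The ranges were far apart. KRT8 was 9.95-fold higher in FLP than in CTRL (counting interval 6.18 to 17.04), with a log2 fold change of 3.30 ± 0.36 (SE, edgeR, adjusted p = 9.72e-08).

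KRT18, the type I partner of KRT8, was the second most abundant of the 10 in HEK293T by median, at 27.2 CPM with a range of 14.9 to 36.7. The highest value was that of the second RPRD1A_RPRD2_KD library, and CTRL had 18.5 and 29.4 CPM. Flp-In libraries had 115 and 119 CPM in FLP, 104 and 124 in FLP_TET, 121 and 95.3 in RPRD1B_FL, and 115 and 117 in RPRD1B_FL_TET. The 4 Flp-In groups overlapped one another and lay apart from all HEK293T groups. The rise in FLP over CTRL was 4.78-fold (counting interval 3.87 to 5.96), with a log2 fold change of 2.29 ± 0.26 (SE, edgeR, adjusted p = 1.48e-07).

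KRT19, a type I keratin with almost no tail, had the widest gap. The 16 HEK293T libraries held 14 counts in all. CTRL accounted for 6 of them (1 and 5 counts, 0.545 and 2.26 CPM), and 9 of the 16 had none. In Flp-In it was the most abundant of the 10 genes in 6 of 8 libraries: 299 and 376 CPM in FLP, 511 and 490 in FLP_TET, 514 and 434 in RPRD1B_FL, and 708 and 483 in RPRD1B_FL_TET. Its fold difference rests on the few HEK293T counts and is imprecise: 231-fold between FLP and CTRL (counting interval 106 to 631) and 1289-fold over all libraries (768 to 2359). The corresponding log2 fold change in FLP against CTRL was 7.82 ± 0.44 (SE, edgeR, adjusted p = 2.37e-12).

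Filaments need type I and type II chains in equal number, so the counts of the partners were set side by side. KRT18 alone gave 3.31 to 17 counts per count of KRT8 in HEK293T and 2.06 to 3.14 in Flp-In. With KRT19 added, KRT18 and KRT19 together gave 3.38 to 17.7 counts per KRT8 count in HEK293T (median 7.0) and 10.2 to 17.8 in Flp-In (median 13.5). Their counts exceeded those of KRT8 in all 24 libraries. These ratios leave out KRT10, another type I keratin, with a mean of 139 CPM over the 24 libraries. They also leave out any type II chain other than KRT8, so they do not give the balance of all type I and type II genes. KRT8 had only 3 to 19 counts per HEK293T library, so the ratios there are imprecise.

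**Figure D3:**
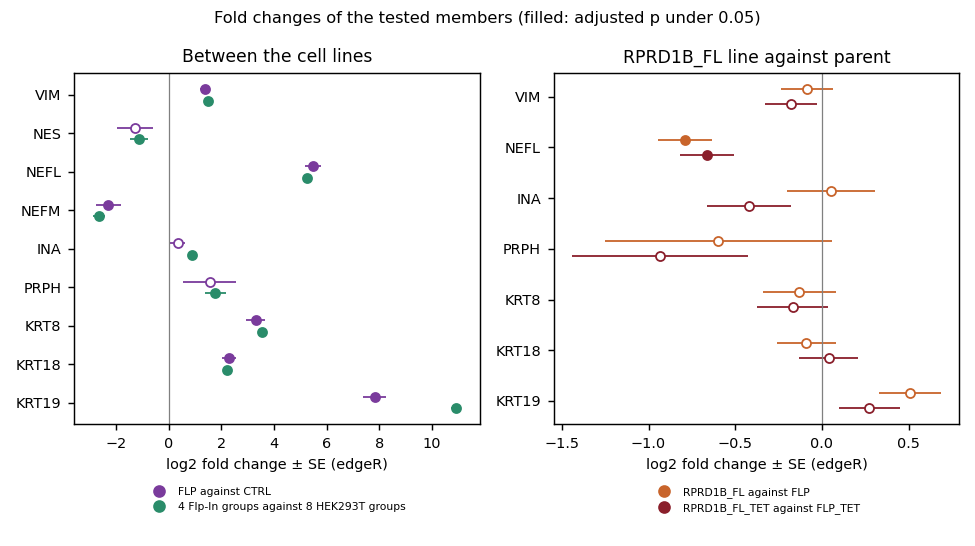
Log2 fold changes with their SE (horizontal axes, edgeR) of the genes that passed the filter, between the lines (left) and between RPRD1B_FL and parent cells with and without tetracycline (right); filled points have an adjusted p under 0.05. On the left KRT19 and NEFL lie farthest to the right and NEFM farthest to the left, and on the right NEFL is the filled gene in both comparisons.

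Within Flp-In, where the 4 groups share the line and the absence of siRNA, 7 of the 10 passed the filter (VIM, NEFL, INA, PRPH, KRT8, KRT18, KRT19), and 11948 genes were tested. RPRD1B_FL was compared with FLP, and RPRD1B_FL_TET with FLP_TET. NEFL was lower in the RPRD1B_FL cells in both. Without tetracycline it was at 81.6 and 83.1 CPM in RPRD1B_FL and at 152 and 138 in FLP. The ratio was 0.573 (counting interval 0.511 to 0.643) and the log2 fold change -0.79 ± 0.16 (SE, edgeR, adjusted p = 0.00832). With tetracycline it was at 75.4 and 87.5 CPM against 132 and 128, a ratio of 0.622 (0.553 to 0.699) and a log2 fold change of -0.66 ± 0.16 (SE, edgeR, adjusted p = 0.0364). All 4 RPRD1B_FL libraries were below all 4 parent libraries. The other 6 were not called in either comparison, so 1 of 7 was called in each, and 1.18% and 1.11% of all genes tested were called. The NEFL difference was already present before tetracycline: it was 0.13 ± 0.22 (SE, log2 scale, edgeR, adjusted p = 0.991) smaller with it, a difference that did not pass the test.

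The size of the NEFL difference moved little between settings, and the call moved more. Without 1 library the log2 fold change lay between -0.86 and -0.72 without tetracycline and between -0.73 and -0.59 with it. The call was lost without FLP 1, RPRD1B_FL 1 or RPRD1B_FL 2 (edgeR adjusted p 0.115, 0.129 and 0.113) in the first comparison, and without FLP_TET 1, FLP_TET 2 or RPRD1B_FL_TET 1 (0.365, 0.324 and 0.0938) in the second. A correction for GC content gave -0.78 and -0.67, with edgeR adjusted p of 0.000702 and 0.00372. A fit with a block for the replicate number kept the call in the first comparison and lost it in the second.

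KRT19 was higher in RPRD1B_FL than in FLP in both replicates, but the difference did not pass the test: 514 and 434 CPM against 299 and 376, a log2 fold change of 0.51 ± 0.18 (SE, edgeR, adjusted p = 0.196). With tetracycline the values were 708 and 483 against 511 and 490 CPM, which overlapped (0.27 ± 0.18, SE, edgeR, adjusted p = 0.655). VIM, KRT8 and KRT18 differed by at most 0.18 on the log2 scale in these 2 comparisons. INA was at -0.42 ± 0.24 and PRPH at -0.93 ± 0.51 (SE, log2 scale) with tetracycline, and neither passed the test.

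Tetracycline itself was compared within each kind of cell. In FLP_TET against FLP, none of the 7 was called by edgeR, with 1.02% of all genes called. Unadjusted p was under 0.05 for 3, all higher with tetracycline: KRT19, INA and PRPH. Over all genes it was under 0.05 for 2711 of 11948. KRT19 was at 299 and 376 CPM in FLP and at 511 and 490 CPM in FLP_TET, without overlap, but did not pass the test, at a log2 fold change of 0.63 ± 0.18 (SE, edgeR, adjusted p = 0.0667). That adjusted p ran from 0.0025 to 0.629 over the alternatives, and DESeq2 called KRT19 (adjusted p = 0.0383). The GC deviations moved with this comparison (rho -0.50 and -0.30 in FLP, 0.27 and 0.40 in FLP_TET), and after a GC correction the log2 fold change of KRT19 was 0.33 (edgeR adjusted p 0.141). INA went from 15.7 and 15.9 CPM to 23.04 and 20.6 (0.53 ± 0.24, SE, edgeR, adjusted p = 0.188), and PRPH from 1.87 and 2.55 CPM to 5.54 and 3.999 (1.14 ± 0.50, SE, edgeR, adjusted p = 0.181).

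In RPRD1B_FL_TET against RPRD1B_FL, edgeR called none of the 7 and 0% of all genes. Of the 11948 genes, 733 had an unadjusted p under 0.05, and DESeq2 also called 0. KRT19 was the member with an unadjusted p under 0.05, at 708 and 483 CPM against 514 and 434, which overlapped (0.39 ± 0.18, SE, edgeR, adjusted p = 0.788). Without the second RPRD1B_FL_TET library it was called, at 0.67 with an edgeR adjusted p of 0.0406. NEFL differed by 0.04 ± 0.16 (SE, log2 scale). The difference of the tetracycline effect between the 2 kinds of cell was called for none of the 7 and for 0% of all genes by edgeR (477 genes with an unadjusted p under 0.05, 0 of the 7 among them, and 0 genes by DESeq2). These comparisons share libraries with one another, and each gene's values are therefore given side by side.

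In HEK293T, silencing of the RPRD genes left no called change among the filament genes. The fit of the 16 libraries tested 11834 genes and 7 of the 10: VIM, NES, NEFL, NEFM, INA, KRT8 and KRT18. KRT19, PRPH and NEFH were too low. None of the 7 was called by edgeR in any of the 7 comparisons with CTRL, nor by DESeq2. Over all genes few were called too: 0.00845% of all genes in RPRD1A_KD, RPRD1B_KD, RPRD2_KD and RPRD1A_RPRD2_KD, and 0.0169% in the 3 other groups and in the mean of the 7. These calls, all lower than CTRL, were RPRD1A, RPRD2 and GIPC1, the last named after its values were seen. Of the 49 tests of a member, 3 had an unadjusted p under 0.05 by edgeR, and the smallest adjusted p was 0.619. Over all genes, 297 (RPRD1B_RPRD2_KD) to 837 (RPRD1A_RPRD2_KD) of 11834 had an unadjusted p under 0.05 in these comparisons.

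These 3 were VIM in RPRD1A_RPRD2_KD, NEFM in RPRD1A_RPRD1A_KD and INA in RPRD1B_RPRD2_KD. VIM was at 106 and 71.8 CPM there, below the 125 and 153 CPM of CTRL and below every other HEK293T library. Its log2 fold change was -0.67 ± 0.19 (SE, edgeR, adjusted p = 0.619). The 71.8 CPM belongs to the library that stands apart: without it the change was -0.45 (edgeR adjusted p 1.00), and with it as the sole library of its group, whose spread is then assumed to be that of the other groups, -0.91 (edgeR adjusted p 0.0106). NEFM was at 4.81 and 8.83 CPM in RPRD1A_RPRD1A_KD, against 8.18 and 20.8 in CTRL, which overlapped (-1.10 ± 0.46, SE, log2 scale, edgeR, adjusted p = 1.00). INA was at 6.83 and 6.98 CPM in RPRD1B_RPRD2_KD and at 9.27 and 15.8 in CTRL, without overlap (-0.91 ± 0.36, SE, log2 scale, edgeR, adjusted p = 1.00).

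Pooled over the 14 silenced libraries, VIM stood at 0.947 of its CTRL level (counting interval 0.868 to 1.04), KRT18 at 1.10 (0.894 to 1.37), KRT8 at 0.919 (0.560 to 1.596), NEFL at 0.977 (0.548 to 1.90), INA at 0.770 (0.573 to 1.05), NEFM at 0.756 (0.576 to 1.008) and NES at 0.662 (0.414 to 1.11). The intervals of these 7 reached 1. Those of VIM and KRT18 stayed within 1.5 times of the CTRL level in both directions, and those of the other 5 did not. They cover counting error only and pool 7 kinds of silencing against 2 CTRL libraries, in which KRT18 was at 18.5 and 29.4 CPM. They therefore set no bound on an effect of silencing. Of the 3 genes too low for the test, PRPH had a ratio of 1.04 (0.318 to 5.36), and the intervals of KRT19 and NEFH lay below 1, at 0.160 (0.0486 to 0.559) and 0.210 (0.0533 to 0.977). These last rest on 8 counts in the silenced libraries against 6 in CTRL for KRT19 and on 7 against 4 for NEFH. They have no test across libraries in the main fit.

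Genes whose level ran most like that of a member were ranked among 6832 genes with a mean of 20 CPM or more, by Pearson's r of log2(CPM + 1) over the 24 libraries after the mean of each line was subtracted. These values are a description over libraries that share depth and base composition effects. For NEFL the first 3 were DIP2A (r = 0.703), IFNAR2 (0.701) and NTN1 (0.700), and for KRT19 MED27 (0.681), TLX1 (0.650) and ELAVL1 (0.644). For KRT18 they were TBC1D10B (0.718), LSM11 (0.678) and SELENON (0.632). For VIM they were PDIA4 (0.906), GSR (0.898) and the pseudogene RPL23AP2 (0.888), but without the second RPRD1A_RPRD2_KD library these fell to 0.736, 0.669 and 0.648. Of the 10 filament genes only these 4 reached a mean of 20 CPM and were ranked. Among them none stood near the top for another: the best place was that of VIM in the ranking for KRT19, at 1261 (r = 0.192).

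Partners were also compared library by library within each line, 6 relations in all, as log2(CPM + 1). KRT8 and KRT18 had r = 0.213 and rho = 0.388 over the 16 HEK293T libraries (permutation p 0.422 and 0.138) and r = 0.468 and rho = 0.405 over the 8 Flp-In libraries (exact permutation p 0.157 and 0.327). NEFM and INA had r = 0.347 and rho = 0.274 in HEK293T (permutation p 0.186 and 0.307) and r = 0.0256 and rho = 0.167 in Flp-In (exact permutation p 0.949 and 0.703). VIM and NES had r = -0.190 and rho = -0.229 in HEK293T (permutation p 0.502 and 0.384) and r = 0.416 and rho = 0.333 in Flp-In (exact permutation p 0.299 and 0.428). None passed after adjustment over the 6 (adjusted permutation p for r 0.558 to 0.949, for rho 0.514 to 0.703). Without the 2 libraries farthest from the median of the first gene, r was 0.230, 0.555 and -0.0954 in HEK293T and 0.0386, -0.458 and 0.491 in Flp-In, in the same order of pairs. Within replicate 1 and replicate 2 of HEK293T, r was -0.336 and 0.441 for KRT8 with KRT18, -0.139 and 0.597 for NEFM with INA, and 0.202 and -0.568 for VIM with NES. The sign differed between the replicates in all 3 pairs. Within Flp-In a replicate number holds too few libraries for a value.

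The filament genes were set beside other markers of the lineages they stand for, taken from lists of such genes, in FLP against CTRL and over all groups, where 33.4% and 68.8% of all genes tested were called. In bulk RNA fewer cells of a type and less RNA per cell cannot be told apart. Some markers passed the filter on low counts only through the line in which they are high, so counts of calls among markers are a description. Of 12 epithelial markers, 4 passed the filter and 2 were higher in FLP than in CTRL. EPCAM, an epithelial surface glycoprotein, was at 63.6 to 111 CPM in Flp-In and 0.534 to 4.89 CPM in HEK293T (27.8-fold in FLP over CTRL, counting interval 16.1 to 52.5). CDH1, the epithelial cadherin, was at 14.4 to 31.4 CPM in Flp-In and 6.17 to 20.3 in HEK293T. ESRP2, an epithelial splicing regulator, was called over all groups only (log2 fold change 0.55 ± 0.18, SE, edgeR, adjusted p = 0.00953). CLDN7, a tight junction protein and the fourth that passed, was at 1.01 to 3.96 CPM in Flp-In and 0.950 to 6.79 in HEK293T and was called in neither comparison. The summed level of the 12, to which EPCAM gave the most in Flp-In, was 88.9 to 165 CPM in Flp-In and 18.5 to 36.3 CPM in HEK293T.

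Of 14 neuronal markers, 8 passed and 4 were higher in FLP: UCHL1, a ubiquitin hydrolase abundant in neurons, ENO2, MAP2 and RBFOX3. Within HEK293T alone 4 of the 14 passed and within Flp-In alone 7, so part of the 8 entered through Flp-In. GAP43, a growth-cone protein, was lower. UCHL1 was at 667 to 949.8 CPM in Flp-In and 229 to 414 in HEK293T, and MAP2, a dendritic microtubule protein, at 3.72 to 14.6 CPM against 4 counts in all 16 HEK293T libraries. CHGA and MAPT were called as well over all groups, both higher in Flp-In. TUBB3, STMN2, DCX, ELAVL4 and TH, which also define neurons, had 0 to 2 counts over the Flp-In libraries. The progenitor marker SOX2 was higher in FLP (log2 fold change 1.29 ± 0.32, SE, edgeR, adjusted p = 0.00266), while MSI1 and PAX6 did not pass there (-0.04 and -0.31). Over all groups PAX6 was lower in Flp-In, as NES was.

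Of 15 mesenchymal markers, 12 passed, 4 were higher (CDH2, FN1, ACTA2, SNAI1) and 2 lower (SNAI2, S100A4) in FLP, and over all groups 5 were higher and 5 lower, beside the 33.4% and 68.8% called of all genes. CDH2, the cadherin of neural and mesenchymal cells, was at 154 to 235 CPM in Flp-In and 19.6 to 36.9 in HEK293T, and FN1 and ACTA2 were also higher. SNAI2, a repressor of epithelial genes, had 14 counts over the 8 Flp-In libraries and 25.5 to 80.3 CPM in every HEK293T library (127-fold lower in FLP than in CTRL, counting interval 43.1 to 622), whereas SNAI1 was higher in Flp-In. Among 10 kidney developmental genes, GATA3 and PAX2 were higher and SIX2 lower in FLP, and SALL1 was at 46.9 to 72.5 CPM in HEK293T and 52.4 to 69.1 in Flp-In. The 5 adrenal genes and the 5 genes of blood, endothelial and liver cells stayed at or below 0.747 CPM when summed. Their part in the filament results was not tested.

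**Figure D4:**
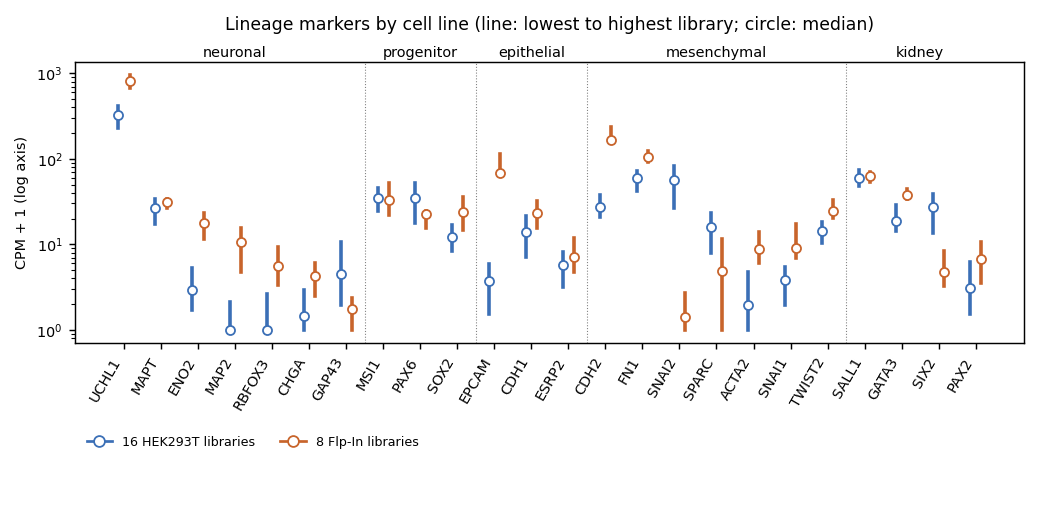
Levels of lineage markers (vertical axis, CPM plus 1 on a log axis) in the 16 HEK293T libraries (blue) and the 8 Flp-In libraries (orange); lines run from the lowest to the highest library and circles are medians. EPCAM, ENO2, MAP2 and CDH2 lie apart with Flp-In higher, SNAI2 and SIX2 lie apart with HEK293T higher, and MSI1 and SALL1 overlap. Only some markers of each list are drawn, picked by mean CPM and by smallest adjusted p. Left out are TWIST1, S100A4 and COL1A1, mesenchymal markers called lower in Flp-In over all groups. The neuronal markers TUBB3, STMN2, DCX, ELAVL4 and TH are also left out.

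In the RPRD1B_FL cells, where NEFL was the filament gene called, 1 listed marker was called as well. SPARC, a secreted matrix glycoprotein, had 53 counts in FLP and 2 in RPRD1B_FL, a ratio of 0.0425 (counting interval 0.005 to 0.161), and 61 counts in FLP_TET and 0 in RPRD1B_FL_TET. No neuronal, epithelial, progenitor or kidney marker was called in either comparison, nor any listed gene in a silencing comparison.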

How the data were processed

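RNA of 24 libraries was read from the 3′ end (QuantSeq 3′ mRNA-Seq REV), per the labels' protocols. The deposited values are whole-number counts per gene name, 1 table per library, with 58138 names and 5 closing rows that were left out of library sizes and tests. The submitters' processing notes name FastQC, STAR, HTSeq, DESeq2 and GRCh38. Versions, annotation and strand setting are not given in the sources used here.

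CPM set all counts in genes of a library to 1000000. The comparisons used edgeR 4.0.16 under R 4.3.3, with limma 3.58.1: its filter for low counts by group (filterByExpr, at least 10 counts, 15 in all), TMM scaling, the quasi-likelihood test, Benjamini-Hochberg adjustment over all genes tested, called under 0.05. Fits held the 16 HEK293T libraries, the 8 Flp-In libraries, or all 24. Each SE is the size of the log2 fold change divided by the root of its F statistic. Ratios of summed counts have exact 95% intervals. The analysis was tested on simulated counts. Kits without molecular identifiers count reads, not independent molecules.

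Alternatives were RLE size factors, no filter, DESeq2 1.42.0, a fit without the other groups, a block for the replicate number, a GC correction (lowess, span 0.3, on transcripts of GENCODE 29, where 54814 names matched 1 gene), both together, each library left out, and, for relations, log2(CPM + 5). The 10 genes and the marker lists were chosen with earlier results of these data known. Beside them the text names, from each list, the 3 genes with the highest mean CPM and up to 4 more called genes with the smallest adjusted p, and the 3 genes most like each member of at least 20 CPM. A few other called genes are named where a count of 5 or fewer is given, and markers without counts were named after their values were seen. Coding sequences of the genes are not reported here.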

Additional observations from a re-analysis of the deposited data

How the results depend on the processing

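No alternative changed the direction of VIM, NEFL, NEFM, KRT8, KRT18 or KRT19 in FLP against CTRL, or of these 6 with NES, INA and PRPH over all groups. In FLP against CTRL 5 to 6 of the 9 tested were called, and over all groups 8 to 10, where the 10 include NEFH without a filter or with DESeq2. No silencing comparison gained a call, except that VIM was called in RPRD1A_RPRD2_KD without that group's first library (0 to 1 calls over the libraries left out). Calls within Flp-In turned on single libraries. Leaving out 1 library gave 0 to 1 calls in RPRD1B_FL against FLP, RPRD1B_FL_TET against FLP_TET, FLP_TET against FLP and RPRD1B_FL_TET against RPRD1B_FL. Without a filter on low counts RPRD1B_FL against FLP had 2 calls (NEFL and KRT19), and FLP_TET against FLP had 1 (KRT19), as it had with DESeq2 (1) and in a fit of only the compared groups (1). Among the relations between partners, NEFM with INA in Flp-In turned to r = -0.0485 with log2(CPM + 5), and VIM with NES in HEK293T to r = 0.0463 without the second RPRD1A_RPRD2_KD library. The cause was not tested.

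Over all genes, the number called in a silencing comparison was 1 to 2 and ran from 0 to 573 over the alternatives, the highest in RPRD1A_RPRD2_KD without its first library. In the other silencing comparisons and their mean the highest, 25 to 167, came with the replicate block and without the second RPRD1A_RPRD2_KD library. It was 141 (40 to 328) for RPRD1B_FL against FLP, 133 (28 to 266) for RPRD1B_FL_TET against FLP_TET, 122 (0 to 1273, the highest in a fit without the other groups) for FLP_TET against FLP, 0 (0 to 74) for RPRD1B_FL_TET against RPRD1B_FL, and 0 (0 to 5) for the difference between tetracycline effects. The GC correction gave 316 and 265 in the first 2.

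Replicate numbers were used as a block in an alternative fit. Same-numbered libraries deviated together in HEK293T (mean r 0.334, from -0.0101 to 0.524 over 28 pairs of groups) but not in Flp-In (mean r -0.0174, from -0.356 to 0.460 over 6 pairs). On the second principal component of HEK293T (20.3% of the variance), replicate 1 lay between -14.1 and -7.82. Replicate 2 lay between 8.985 and 18.1, apart from the second RPRD1A_RPRD2_KD library at -2.52. Replicate number thus goes with a shared shift in HEK293T, whose source the labels do not give. The main fits held no block for it. As a hint from the data, not the design, the best match of a library across groups had its own number for 16 of 16 libraries in HEK293T and 6 of 8 in Flp-In. The 2 libraries of a group mirror each other in this count, so they are not separate matches. With the replicate block 0 of the filament genes were called in RPRD1B_FL_TET against FLP_TET (NEFL at an edgeR adjusted p of 0.0521), and the count of called filament genes was as before in the other 14 comparisons. The block moved the calls over all genes from 122 to 1 in FLP_TET against FLP, and gave 1 to 13 in the silencing comparisons.

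Depth limits NES, NEFH, PRPH and, in HEK293T, KRT8, KRT19 and NEFL, which had fewer than 20 counts a library.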

Other observations

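The 3 nuclear lamin genes, for intermediate filament proteins that line the inner nuclear membrane, were abundant in both lines. Of them, 2 were higher in FLP than in CTRL, beside 33.4% called of all genes tested. LMNB1 was at 365 to 469 CPM in Flp-In and 269 to 471 CPM in HEK293T, which overlapped (log2 fold change of FLP over CTRL -0.15 ± 0.15, SE, edgeR, adjusted p = 0.482). LMNB2 was at 331 to 426 CPM in Flp-In and 142 to 246 in HEK293T, without overlap, and rose by 0.97 ± 0.19 in FLP (SE, log2 scale, edgeR, adjusted p = 0.0004). LMNA, which is high in stiff and differentiated tissues, was at 129.5 to 259 CPM in Flp-In and 94.1 to 128 in HEK293T, and rose by 0.57 ± 0.22 (SE, log2 scale, edgeR, adjusted p = 0.0483). Of 57 other cytoplasmic intermediate filament genes only 4 passed the filter, and 44 had no count in any HEK293T library and 39 in any Flp-In library. KRT10, a type I keratin of stratified skin, was the abundant exception, at 150 to 217 CPM in Flp-In and 94.1 to 129 in HEK293T. It was the 1 of the 4 called in FLP against CTRL (0.61 ± 0.16, SE, log2 scale, edgeR, adjusted p = 0.00381), beside the same 33.4% of all genes.

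Among 14 genes for linkers that tie filaments to junctions and other cables, or for filament turnover, 10 passed, and 5 were higher and 1 lower in FLP than in CTRL, beside 33.4% called of all genes tested. PLEC, which encodes the plakin plectin, was the lower one: it was at 14.6 to 30.6 CPM in Flp-In and at 48.3 to 80 CPM in HEK293T (log2 fold change -1.95 ± 0.25, SE, edgeR, adjusted p = 1.51e-06). EPPK1, another plakin, which binds keratin and vimentin, went the other way, at 26.5 to 52.4 CPM in Flp-In and 1.64 to 9.09 CPM in HEK293T (3.23 ± 0.44, SE, log2 scale, edgeR). The desmosome genes JUP and PKP2 rose as well (0.94 and 2.22 on the log2 scale), as did MACF1 and DST, while DSP, which encodes the desmosomal anchor of keratin filaments, did not pass the test in FLP against CTRL (0.22 ± 0.15, SE, log2 scale, edgeR, adjusted p = 0.277).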
